A study of Rattus norvegicus with 15 samples.

Results

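The 9 genes described here encode the parts of the MHC class II pathway: the alpha and beta chains of the rat molecules RT1.B (RT1-Ba, RT1-Bb) and RT1.D (RT1-Da, RT1-Db1), the peptide exchange factor DM (RT1-DMa, RT1-DMb), the invariant chain Cd74, the transactivator Ciita and the protease cathepsin S (Ctss). They were chosen by name, as the probes that carry one of these symbols or an older one in the scanner files. Probes were present for 8 of the 9 genes, 14 probes of 41012 on the array, and none was found under the name of RT1-DMb. RT1-DMa stands in the files as Hla-dma and Ciita as C2ta.

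Transcripts were measured on Agilent whole-genome rat arrays in mucosal cell suspensions of 5 gut segments, with 3 samples each from the ileum, stomach, colon, duodenum and jejunum. The suspensions came from everted bowel or stomach after a short pronase digestion and elutriation, a separation by size and density. The labels give male Sprague Dawley rats with no treatment, but no age, and for ileum 3 they give neither strain nor sex. Whether the isolations came from separate animals is not stated, so the tests speak only for the variation among these isolations, which may be technical. Duodenum and jejunum together are called the proximal small bowel (6 samples) and are the group against which the ileum, stomach and colon were set. Colon 1 and 2 are the 2 dyes of one array, and colon 3 is a scan made on another day under the same slide number. Whether colon 3 is another hybridisation or a second scan is not stated, so the colon may hold fewer than 3 independent samples.

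MHC class II molecules carry peptides from endocytosed proteins to the cell surface, where CD4+ T cells read them. The invariant chain holds the new alpha and beta chains together and fills their groove until cathepsin S trims it and DM swaps the remaining fragment for a peptide. B cells, dendritic cells and macrophages make the class II chains, and gut epithelial cells can make them under interferon gamma, in each case through Ciita. Ciita has no DNA binding of its own and acts on factors bound to the X and Y boxes of class II promoters.

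The rat class II chains lie on chromosome 20 and vary between haplotypes, so what a probe reads depends on its letters. Both RT1-Ba probes are printed because they cover the same stretch and behaved differently. One was made against a cloned RT1.B-1 alpha mRNA and the other against the RefSeq mRNA. Of 54 bases that align, 49 are identical, 5 are substitutions, and the first probe holds 3 more bases in the overlap. Capitals mark the substituted and added bases, 5′ to 3′.

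RT1-Ba, RT1.B-1 alpha probe: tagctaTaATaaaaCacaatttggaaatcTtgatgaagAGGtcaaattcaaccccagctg
RT1-Ba, RefSeq mRNA probe: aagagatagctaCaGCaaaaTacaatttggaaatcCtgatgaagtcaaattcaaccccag

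Of the 3 RT1-Db1 probes, the brightest and the dimmest are shown, since the brightest gave the ileal difference and the dimmest did not. Both were made against the same RefSeq mRNA, per the file annotation.

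RT1-Db1, brightest probe: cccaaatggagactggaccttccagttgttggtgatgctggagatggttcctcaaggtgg
RT1-Db1, dimmest probe: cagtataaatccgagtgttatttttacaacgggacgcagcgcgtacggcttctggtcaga

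The promoters of the 9 genes were read for the letters of the boxes that Ciita works through. RefSeq promoter windows (build GRCr8, 250 bases before to 50 after a transcript start) were at hand for 7 of the 9 genes. The Y box letters searched were TGATTGG and the X box letters GNNACNG, with the X letters starting 25 to 45 bases upstream of the Y letters on the strand of the gene and no overlap between them. These letters were chosen with the class II promoters in view. The pair was found in 5 of the 7 windows, those of RT1-Ba, RT1-Bb, RT1-Da, RT1-Db1 and RT1-DMa, and in 135 of all 33469 promoter windows (0.403%, or 0.687% with either strand counted). Capitals mark the X letters and then the Y letters.

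RT1-Ba (chr20:4576975-4577024, plus strand): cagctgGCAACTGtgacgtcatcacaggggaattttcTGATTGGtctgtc
RT1-Bb (chr20:4604169-4604217, minus strand): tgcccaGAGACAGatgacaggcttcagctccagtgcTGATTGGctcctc
RT1-Da (chr20:4515327-4515376, plus strand): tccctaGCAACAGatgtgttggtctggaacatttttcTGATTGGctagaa
RT1-Db1 (chr20:4560232-4560280, minus strand): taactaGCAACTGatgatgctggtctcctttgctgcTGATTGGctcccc
RT1-DMa (chr20:4712389-4712438, minus strand): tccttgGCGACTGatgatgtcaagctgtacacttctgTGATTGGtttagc

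In these windows 30 or 31 bases separated the first X letter from the first Y letter. Counted from the start point that each window is built on, the Y letters began 45 bases upstream in RT1-Ba, 51 in RT1-Da, 63 in RT1-Bb, 66 in RT1-DMa and 82 in RT1-Db1. For RT1-Da and RT1-Db1 that point lies inside the annotated gene rather than at its outer end. TGATTGG by itself stood on the gene strand of 3.62% of all windows and on either strand of 7.06%. The windows of Cd74 (chromosome 18) and Ctss (chromosome 2) did not hold these letters on either strand. A match is a run of letters and not a measured binding site.

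In the ileum the 4 class II chain genes and Cd74 were 8.27-fold to 45.9-fold higher than in the proximal small bowel, while RT1-DMa, Ctss and Ciita did not pass the test. The upper end is RT1-Ba, whose proximal spots were mostly dim and whose log2 difference of 5.52 was 3.37 with another background correction. Levels are log2 intensities relative to the 75th percentile of each sample, so that 0 is the level of that percentile, and a level of one probe cannot be set against that of another. The limma fit passed 5 of the 8 genes as higher and 0 as lower at an adjusted p under 0.05, against 1.78% of 33638 genes tested as higher and 2.51% as lower. At an unadjusted p under 0.05 limma gave 6 higher and 0 lower. The share of all genes at that unadjusted threshold was not computed, so unadjusted counts here and below are description only. The median difference was 3.1 over the 8 genes and 0.09 over all genes tested.

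RT1-Ba, the alpha chain of RT1.B, had levels of 1.84, 1.41 and 1.34 in ileum 1 to 3, against -3.46, -2.63 and -5.45 in duodenum 1 to 3 and -3.81, -5.00 and -1.70 in jejunum 1 to 3. All 3 ileal samples stood above all 6 proximal samples, as they did for 6.95% of all genes tested, and jejunum 3 was the highest of those 6. The fitted difference, which is adjusted for the labelling dye and so departs a little from the difference of the means, was 5.52 ± 0.61 on the log2 scale (SE, adjusted p = 5.79e-05 by limma). Its proximal side rests on dim spots, since the probe was well above background in 2 of the 6 proximal samples. With the background corrected another way (normexp) the difference was 3.37 and still passed.

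Its partner RT1-Bb, the beta chain of RT1.B, had levels of 2.57, 3.12 and 1.79 in ileum 1 to 3, against -1.02, -0.98 and -1.25 in duodenum 1 to 3 and -0.53, -1.03 and -0.02 in jejunum 1 to 3. The ileal samples again lay apart from the proximal ones, and every spot was well above background. The difference was 3.45 ± 0.31 (SE, adjusted p = 5.39e-06 by limma), a 10.9-fold higher level in the ileum.

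For RT1-Da, the alpha chain of RT1.D, ileum 1 to 3 had levels of 3.57, 3.58 and 3.41, against 0.32, 0.60 and -0.23 in duodenum 1 to 3 and 1.15, -0.50 and 2.23 in jejunum 1 to 3. The ileal samples lay close together (SD 0.10, n = 3), while the jejunal ones spread widely, with jejunum 3 closest to the ileum. The difference was 3.15 ± 0.43 (SE, adjusted p = 0.000455 by limma), or 8.86-fold.

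RT1-Db1, the beta chain of RT1.D, had levels of 3.36, 2.99 and 2.49 in ileum 1 to 3, against -0.33, -0.41 and -0.19 in duodenum 1 to 3 and 0.69, -0.42 and 0.78 in jejunum 1 to 3. No proximal sample reached the ileal range. The difference was 3.05 ± 0.30 (SE, adjusted p = 1.93e-05 by limma), or 8.27-fold.

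Cd74, the invariant chain, was at 4.31, 4.61 and 4.14 in ileum 1 to 3, against 1.26, 1.90 and 0.09 in duodenum 1 to 3 and 2.33, -0.12 and 2.78 in jejunum 1 to 3. The proximal samples covered a wide range without reaching the ileal one, with jejunum 3 at the top and jejunum 2 at the bottom. The difference was 3.25 ± 0.46 (SE, adjusted p = 0.000702 by limma), or 9.53-fold.

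Ciita, the transactivator of the class II genes, had levels of 0.10, -0.25 and -0.39 in ileum 1 to 3, against -1.71, -3.48 and -2.35 in duodenum 1 to 3 and -1.14, -2.26 and -1.49 in jejunum 1 to 3. Here too the 3 ileal samples lay above all 6 proximal ones. The difference of 1.54 ± 0.54 did not pass (SE, adjusted p = 0.121 by limma, 95% interval 0.41 to 2.67). It passed with the normexp background correction, where it was 0.97 (adjusted p = 0.0214), and without colon 3, where it was 1.66 (adjusted p = 0.0353). Over all the other alternatives it did not pass, with adjusted p up to 0.255.

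RT1-DMa, the alpha chain of the peptide exchange factor, was at 2.07, 2.52 and 1.94 in ileum 1 to 3, against 1.82, 1.80 and 1.96 in duodenum 1 to 3 and 2.06, 1.82 and 1.71 in jejunum 1 to 3. These ranges overlapped, and the difference of 0.29 ± 0.24 did not pass (SE, adjusted p = 0.539 by limma, 95% interval -0.21 to 0.79).

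Ctss, the protease that trims the invariant chain, was at 3.11, 3.48 and 3.25 in ileum 1 to 3, against 3.34, 3.52 and 3.09 in duodenum 1 to 3 and 4.25, 3.29 and 3.71 in jejunum 1 to 3. Its difference of -0.25 ± 0.24 did not pass either (SE, adjusted p = 0.600 by limma, 95% interval -0.75 to 0.25), nor did the 0.60 that the normexp correction gave. The upper ends of the RT1-DMa and Ctss intervals, 0.79 and 0.25, lie below the lower ends of the intervals of the 5 genes that passed, of which RT1-Da had the lowest at 2.25.

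**Figure D1:**
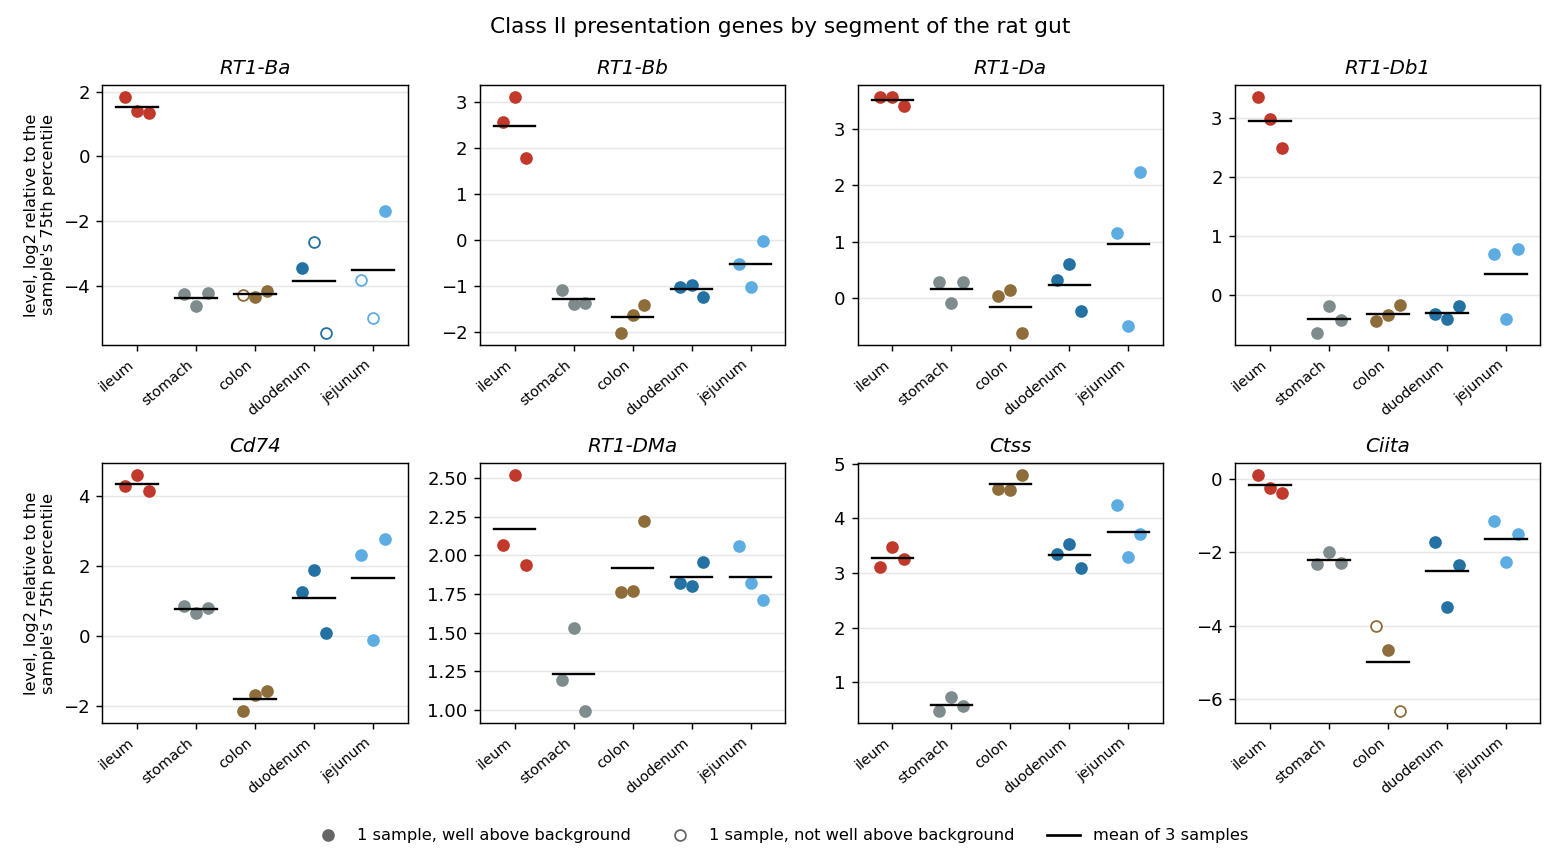
Level of each of the 8 genes with a probe (vertical axis, log2 intensity relative to the 75th percentile of the sample) in the 5 segments (horizontal axis). Each point is 1 sample, open where the spot was not well above background, and each bar is the mean of 3 samples. The ileal points of RT1-Ba, RT1-Bb, RT1-Da, RT1-Db1 and Cd74 lie above all other points, those of RT1-DMa overlap the points of other segments apart from the stomach, and Ctss is highest in the colon.

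The ileal samples were each scanned on a day of their own and apart from the other segments, all with Cy3, so scan day and segment cannot be separated for the ileum except through the spread between its 3 days. With scan day as a random block, 5 of the 8 genes again passed as higher in the ileum. Leaving out each of the 15 samples in turn gave 5 or 6 genes. The software version of ileum 1 was that of duodenum and jejunum, while ileum 2 and 3 had a version found in no other sample. The stomach samples were all scanned on the same day, and the colon samples on days and a slide of their own. Each of these segments also had a software version that no other segment had. Differences of the stomach or colon from other segments therefore cannot be separated from the scan either.

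Across the 5 segments, all 8 genes passed the F test, against 42.1% of all genes tested, with RT1-DMa close to the threshold (adjusted p = 0.0490 by limma). The ileum held the highest mean of 7 of them, and Ctss was highest in the colon. For RT1-Ba, RT1-Bb, RT1-Da and RT1-Db1, the ileum passed as higher against each of the 4 other segments, against 1.45% of all genes higher than in jejunum, 1.34% than in duodenum, 10.7% than in stomach and 7.75% than in colon. Among those 4 segments the neighbours in the order of levels did not pass for any of the 4 chain genes, and of all pairs among them RT1-Bb in colon against jejunum alone passed (lower in colon, as for 13.1% of genes).

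The mean of RT1-Ba was 1.53 ± 0.27 in the ileum, and its order then ran through jejunum, duodenum, colon and stomach (-3.50, -3.85, -4.26 and -4.36, n = 3 each). RT1-Bb averaged 2.49 in the ileum and then -0.53 in jejunum, -1.08 in duodenum, -1.29 in stomach and -1.69 in colon. The RT1.D pair had the same leader, with RT1-Da at 3.52 in the ileum and 0.96 in the jejunum, and RT1-Db1 at 2.95 in the ileum and 0.35 in the jejunum. Both RT1.D chains lay between -0.42 and 0.23 on average in the other 3 segments.

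Cd74 had 2 steps in its order. It averaged 4.36 in the ileum, 1.66 in the jejunum, 1.08 in the duodenum, 0.77 in the stomach and -1.80 in the colon. The step between ileum and jejunum passed (2.87, adjusted p = 0.00376 by limma) and so did the step between stomach and colon (2.75 in stomach minus colon, adjusted p = 0.00126 by limma), a comparison in which 21.1% of all genes were higher in the stomach.

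In the colon the invariant chain and the transactivator were lower than in the proximal small bowel while the class II chains did not pass. The fit called 1 of the 8 genes higher and 2 lower, against 13.7% of all genes higher and 13.9% lower. Cd74 stood at -2.16, -1.68 and -1.57 in colon 1 to 3, below every proximal sample, as for 18% of all genes, and differed by -3.27 ± 0.52 (SE, adjusted p = 0.000234 by limma). Ciita stood at -3.99, -4.65 and -6.32 in colon 1 to 3 and differed by -2.80 ± 0.61 (SE, adjusted p = 0.00278 by limma). That Ciita value is a fit to dim spots, with 1 of 3 colon samples well above background, and with the normexp correction the difference was -0.60 and did not pass (adjusted p = 0.0956).

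Ctss went the other way in the colon. It had levels of 4.54, 4.52 and 4.79 in colon 1 to 3, above every duodenal and jejunal sample (as for 19.9% of all genes), and was 2.12-fold higher (1.08 ± 0.27, SE, adjusted p = 0.00675 by limma). The other Ctss probe gave 0.42 ± 0.34 and did not pass (adjusted p = 0.389). With quantile normalization the first probe gave 0.60 and did not pass.

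The 4 chain genes differed between colon and proximal small bowel by -0.94 (RT1-Bb), -0.83 (RT1-Da), -0.70 (RT1-Ba) and -0.38 (RT1-Db1). RT1-Bb came closest to passing, with all 3 colon samples below the 6 proximal ones, an adjusted p of 0.0579 by limma and a 95% interval of -1.68 to -0.19. It passed under 6 of 31 alternatives. The spread of the colon samples may be narrower than that of separate hybridisations, since they share a slide. Colon 3 was the dimmest sample and stood apart in its colonic markers. With each sample left out in turn, colon 3 among them, Cd74 (-3.55 to -2.98), Ciita (-3.21 to -2.25, the smallest without colon 3) and Ctss (0.99 to 1.18) all passed.

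Set against the colon directly, the ileum had 6 of the 8 genes higher and 1 lower, against 7.75% and 7.73% of all genes. Cd74 was 91.7-fold higher (6.52 ± 0.59, SE, adjusted p = 2.36e-06 by limma). RT1-Ba was 74.3-fold, RT1-Bb 20.9-fold, Ciita 20.2-fold, RT1-Da 15.7-fold and RT1-Db1 10.8-fold higher in the ileum. RT1-Ba and Ciita rest on dim colon spots here, and with the normexp correction their differences were 3.14 in place of 6.22 and 1.57 in place of 4.34, and both passed. Ctss was lower in the ileum by 1.33 (log2 difference -1.33 ± 0.30, SE, adjusted p = 0.00635 by limma), but with the normexp correction the difference was -0.18 and did not pass, and its other probe gave -0.70 ± 0.38 (adjusted p = 0.245).

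Ctss was the gene that differed most in the stomach. It had levels of 0.47, 0.73 and 0.57 in stomach 1 to 3, against 3.09 to 4.25 in the 6 proximal samples, and was 7.69-fold lower (log2 difference -2.94 ± 0.22, SE, adjusted p = 3.75e-08 by limma). Its other probe gave -5.60 ± 0.29, or 48.7-fold lower (adjusted p = 2.72e-10 by limma), so the direction held on both probes and the size did not. RT1-DMa was lower in the stomach by 0.64 (log2 difference -0.64 ± 0.23, SE, adjusted p = 0.0471 by limma), with 1.19, 1.53 and 0.99 in stomach 1 to 3, below every proximal sample (as for 11.9% of all genes). The adjusted p of RT1-DMa exceeded 0.05 under 17 of 31 alternatives.

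These 2 genes were the only ones of the 8 that passed in the stomach, against 14.8% of all genes higher and 10.6% lower, and limma gave 0 of the 8 higher at an unadjusted p under 0.05 too. The chain genes, Cd74 and Ciita differed there by -0.58 to -0.25 and did not pass. Cd74 was tight in the stomach, at 0.86, 0.66 and 0.80 in stomach 1 to 3, within the proximal range.

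**Figure D2:**
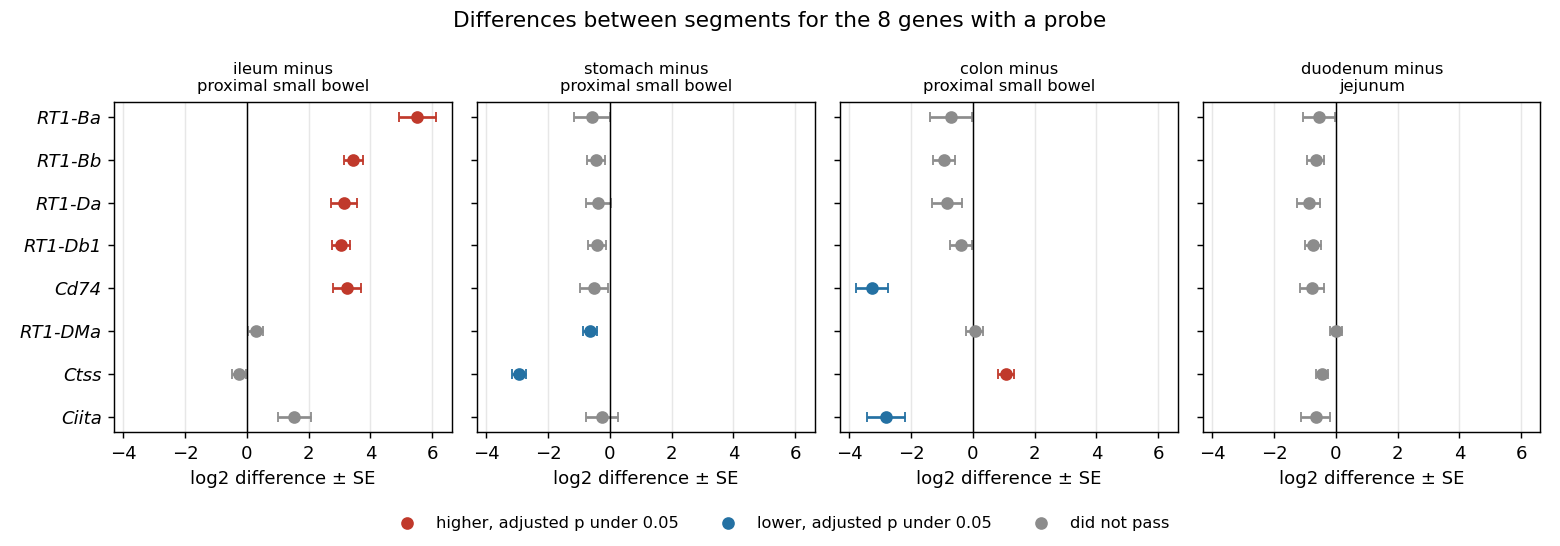
Fitted log2 differences (horizontal axis, points with SE bars) of the 8 genes (vertical axis) in ileum, stomach and colon, each minus the proximal small bowel, and in duodenum minus jejunum. Red points were higher and blue points lower at an adjusted p under 0.05. In the ileum the 4 chain genes and Cd74 stand at 3.05 to 5.52, in the stomach Ctss at -2.94, and in the colon Cd74 and Ciita at -3.27 and -2.80.

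Between duodenum and jejunum, limma called 0 of the 8 genes at the adjusted threshold, against 0.535% of all genes. At an unadjusted p under 0.05 limma gave 4, a count with no share of all genes to set beside it. Fitted differences ran from -0.88 (RT1-Da) to 0.01 (RT1-DMa). Each duodenal sample shared an array with a jejunal one, and within those arrays RT1-Da differed by -1.91 (duodenum 1 minus jejunum 3), -0.55 (duodenum 2 minus jejunum 1) and 0.27 (duodenum 3 minus jejunum 2). Cd74 differed by -1.52, -0.43 and 0.21 within the same 3 arrays, so the jejunal excess was present on 2 of the 3 arrays and led by jejunum 3. Without jejunum 3, RT1-Da differed by -0.03, Cd74 by -0.19 and RT1-Ba by 0.56, and none passed. Without jejunum 2, RT1-Da (-1.40), Cd74 (-1.32) and RT1-Db1 (-1.07) passed as lower in the duodenum.

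Probes of the same gene did not all show the ileal difference. The RefSeq RT1-Ba probe, printed above with its 5 substituted bases, was not well above background in any of the 15 samples and was not tested, while the RT1.B-1 alpha probe was well above background in all 3 ileal samples. Every RT1-Ba value above therefore rests on 1 probe.

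The dimmest RT1-Db1 probe was well above background in 9 of 15 samples, with levels of -4.09, -3.79 and -3.37 in ileum 1 to 3, and gave a difference between ileum and proximal small bowel of 0.79 ± 0.46 that did not pass (adjusted p = 0.365). The other RT1-Db1 probe gave 3.62 ± 0.30, against 3.05 ± 0.30 with the brightest. Further class II probes carry the name of none of the 9 genes. One annotated as an RT1-D beta chain of haplotype k gave 3.60 ± 0.43 and passed. Of those annotated only as MHC class II antigen, NP516919 gave 4.66 ± 0.41 and passed, NP516922 gave 0.31 ± 0.41 and did not (adjusted p = 0.727), and NP516920, well above background in 7 of 15 samples, was not tested. Both RT1-Da probes passed, at 3.99 ± 0.31 and 3.15 ± 0.43. The dimmer RT1-Bb probe passed at 2.63 ± 0.67 (adjusted p = 0.0350 by limma), but its ileal samples disagreed, with 2.12 and 2.80 in ileum 1 and 3 and -0.94 in ileum 2, which lay inside the proximal range.

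**Figure D3:**
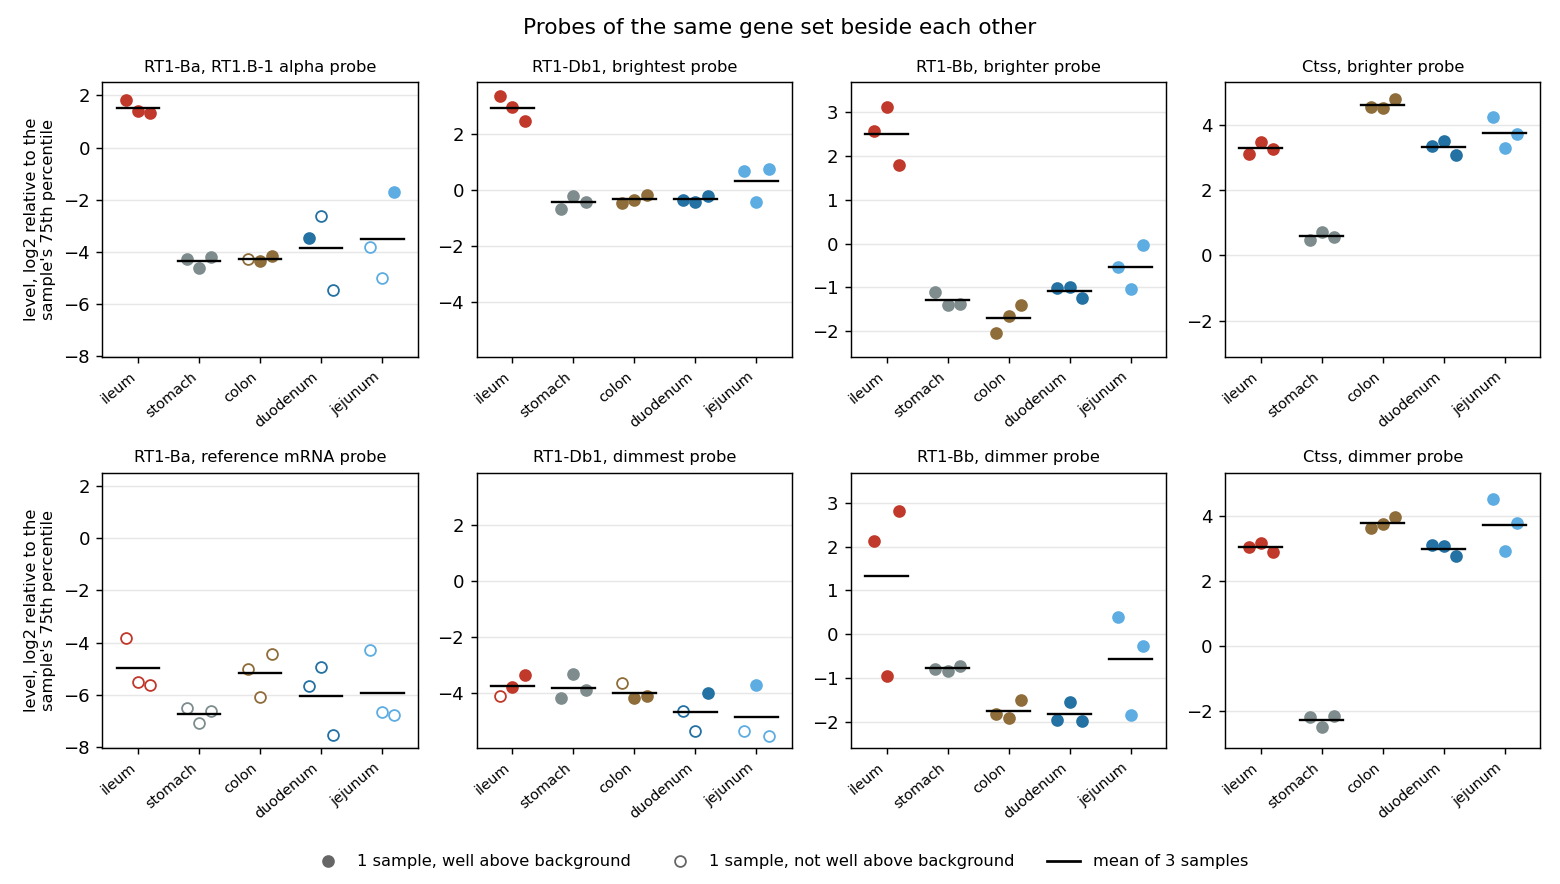
Levels (vertical axis, log2 intensity relative to the 75th percentile of the sample) by segment for pairs of probes of RT1-Ba, RT1-Db1, RT1-Bb and Ctss, with both panels of a gene on one scale. Points are samples, open where not well above background, and bars are means of 3. The RefSeq RT1-Ba probe and the dimmest RT1-Db1 probe stay low in every segment, and ileum 2 falls to -0.94 on the dimmer RT1-Bb probe.

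The 4 chain genes and Cd74 are the genes that passed as higher in the ileum, so their likeness over all samples is in part fixed by that choice. As a description over the 15 samples, which include 5 segments and shared arrays, the level of each correlated with the mean of the other 4 at 0.876 (Cd74) to 0.975 (RT1-Da). Over the 12 samples outside the ileum the same correlations were 0.675 (RT1-Db1) to 0.887 (RT1-Bb), and for deviations from the segment means they were 0.610 (RT1-Db1) to 0.927 (Cd74). Against the mean of those 5 genes, Ciita had an r of 0.763 over all samples and 0.593 outside the ileum. RT1-DMa had 0.462 and -0.033, and Ctss 0.053 and -0.012. For deviations from the segment means the order differed, with 0.553 for Ctss, 0.099 for Ciita and -0.054 for RT1-DMa. Jejunum 3 carried the highest mean of the 5 genes outside the ileum.

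Of 14790 genes ranked by their Pearson correlation with the mean of these 5 over the 15 samples, the most alike was Srgn, the core protein of secretory granule proteoglycan in leukocytes, at 0.942. Next came Lsp1, a leukocyte actin-binding protein (0.920), Naaladl1, a brush border peptidase (0.915), Dnase1l3, a nuclease made by macrophages and dendritic cells (0.906), and Plcg2, a phospholipase of B cell and myeloid receptor signalling (0.905). The ranking used the ileal samples, so the differences of these 5 genes between ileum and proximal small bowel, 0.81 (Dnase1l3) to 2.83 (Naaladl1), only describe the genes picked.

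Other genes of the class II pathway did not follow the chains as a group. Of 27 tested, covering the promoter-bound factors, lysosomal proteases and the interferon gamma receptor, 2 were higher in the ileum than in the proximal small bowel and 1 was lower, with a median difference of 0.29. The genes that passed included the lysosomal protease Ctsh, which was higher (0.91 ± 0.24), and the receptor chain Ifngr2, which was lower (-0.98 ± 0.20). Both are named for passing. The largest differences in this list did not pass: RT1-DOa, a chain of the DM inhibitor DO (1.70 ± 0.57, adjusted p = 0.106), Marchf1, a ligase that removes class II molecules from the surface (-1.44 ± 0.43, adjusted p = 0.0705), and Cd9 (1.13 ± 0.33, adjusted p = 0.0656).

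Genes of class I presentation, the parallel pathway for proteins made inside the cell, showed 0 of 13 passing in the same limma comparison, with a median difference of 0.07 and 1 higher and 1 lower at an unadjusted p under 0.05. Tap1, a subunit of the peptide transporter, came closest at 1.11 ± 0.32 (adjusted p = 0.0566). Psmb10 differed by -0.81 ± 0.26 and Psme1 by -0.57 ± 0.28, and neither passed.

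Of 14 genes induced by interferon gamma, 5 were higher in the ileum and 0 lower by limma (7 and 0 at an unadjusted p under 0.05), with a median difference of 0.78. They included the guanylate-binding protein Gbp2 (2.77 ± 0.33, adjusted p = 0.00013 by limma), the ubiquitin-like Ubd (2.52 ± 0.44) and interferon gamma itself, Ifng (2.11 ± 0.42). Ubd was at 2.12 in jejunum 1, within the 1.65 to 2.39 of the ileum, and at -2.28 to -1.75 in the duodenum. Ifng was well above background in 2 of 3 ileal and 3 of 6 proximal samples. The chemokines Cxcl9 (-0.19 ± 0.37), Cxcl10 (0.21 ± 0.34) and Cxcl11 (-0.16 ± 0.28) did not pass, and Gbp5 was not well above background in any sample.

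The summed level of 5 ileal marker genes was 59.9 to 87.3 in the ileum and 3.38 to 13.3 in the other 12 samples (sums of linear levels in multiples of the 75th percentile). Gastric markers summed to 280 to 604 in the stomach and to at most 43.2 elsewhere, while colonic markers summed to 132 in colon 1, 149 in colon 2 and 20.0 in colon 3, against at most 23.2 in the other segments. Summed levels of leukocyte markers reached higher in the ileum, with ranges that overlapped the proximal ones. They were 11.4 to 17.9 in the ileum and 4.32 to 13.5 in the proximal small bowel for 6 markers of all leukocytes, 31.3 to 49.7 and 12.5 to 36.7 for 13 markers of macrophages and monocytes, and 27.6 to 53.7 and 14.0 to 39.2 for 12 markers of T cells. As means of log2 levels, in which bright markers weigh less, the ranges did not overlap for all leukocytes (-0.49 to 0.07 against -1.66 to -0.88). Nor did they for T cells (0.07 to 0.76 against -1.09 to -0.24), but they did for macrophages and monocytes (0.28 to 0.70 against -0.65 to 0.43). The part of leukocytes in the class II difference was not tested. In such bulk samples, more cells of a type and more RNA per cell cannot be told apart.

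Among the macrophage markers 4 of 13 passed as higher in the ileum by limma and 0 as lower (5 and 1 at an unadjusted p under 0.05), led by Aif1 (2.82 ± 0.44), which the list of follicle epithelium also holds. Lyz2 differed by 2.29 ± 0.68 and did not pass (adjusted p = 0.0686 by limma), and neither did Csf1r (-0.72 ± 0.41) or Cd68 (-0.52 ± 0.29). Among T cell markers 3 of 12 passed as higher, including Cd3e (2.60 ± 0.43) and Cd8a (2.40 ± 0.34), while Cd2 was not well above background in any sample. Cd3e was well above background in at most 9 of 15 samples. Of the 6 markers of all leukocytes 1 passed, Coro1a (2.16 ± 0.32), and Cd52 (1.51 ± 0.42, adjusted p = 0.0539) did not.

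The summed level of B cell markers was 4.62 to 5.11 in the ileum, inside the 3.55 to 6.11 of the proximal small bowel, and limma passed 0 of 10 in either direction (2 higher and 1 lower at an unadjusted p under 0.05). Cd79b, a chain of the B cell receptor, differed by 0.91 ± 0.33 (adjusted p = 0.133 by limma). Of 7 dendritic cell markers, Batf3 passed as higher (2.36 ± 0.52) and Cd83 did not (1.53 ± 0.45, adjusted p = 0.0676). Batf3 was well above background in at most 7 of 15 samples. The dendritic cell markers summed to 2.96 to 3.89 in the ileum and 1.35 to 2.97 in the proximal small bowel. Of 4 plasma cell markers 0 passed in the limma fit (2 at an unadjusted p under 0.05), with Jchain at 1.52 ± 0.47 and Tnfrsf17 at 0.72 ± 0.65. Besides Aif1, no marker of follicle epithelium passed, with Sox8 next at 0.60 ± 0.37.

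The 9 epithelial markers had a summed level of 229 to 331 in the ileum and of 287 to 654 in the proximal small bowel, with a median difference of -0.62. In the limma fit 0 of the 9 passed (5 were lower at an unadjusted p under 0.05), with Krt18 at -0.89 ± 0.33 and Krt20 at -0.86 ± 0.30. The samples with the highest leukocyte sum outside the ileum were both jejunal: jejunum 1 had 13.5 and jejunum 3 had 8.40, and these 2 also had the highest mean of the 5 class II genes outside the ileum. In the colon, where Cd74 and Ciita were lowest, the leukocyte sum was 5.41 to 5.60, within the proximal range. As a mean of log2 levels, the same markers stood at -0.97 to -0.87 in the colon, beside -0.88 in jejunum 1 and -1.08 in jejunum 3. The order of samples by leukocyte markers outside the ileum thus depended on the measure.

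**Figure D4:**
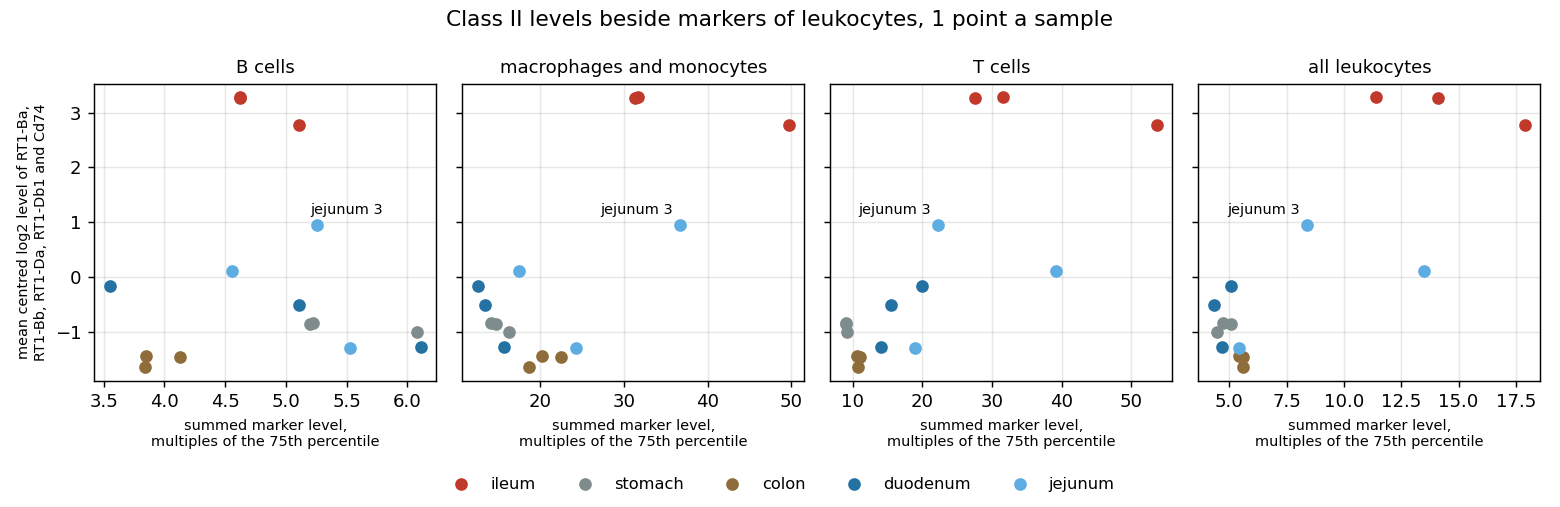
Mean centred log2 level of RT1-Ba, RT1-Bb, RT1-Da, RT1-Db1 and Cd74 (vertical axis) against the summed level of markers of B cells, macrophages and monocytes, T cells and all leukocytes (horizontal axes, multiples of the 75th percentile). Each point is 1 of 15 samples. The 3 ileal points are highest in class II and lie within the range of the other samples for B cells, while for leukocytes they reach 17.9 and jejunum 1, at 13.5, lies among them.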

How the data were processed

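Arrays were Agilent 2-colour scanner files, of which only the channel of the dye that the labels give to a sample was used. Its intensity was already background-subtracted and dye-normalized by Agilent's Feature Extraction, per the file headers. The deposited value table held the same intensity for 100.0% of 43628 spots (within 0.02 on the log2 scale). Software versions ran from 8.5.1.1 in the stomach to 10.1.1.1 in the colon. Duodenum, jejunum and ileum 1 had 9.5.1.1, and ileum 2 and 3 had 9.5.3.1. The multiplier for calling a spot well above background was 2.6 in the stomach, 13 in duodenum, jejunum and ileum, and not given for the colon. Median intensities were 92.4 (colon 3) to 1048.4 (ileum 3), and 44.4% (ileum 1) to 97.1% (stomach 3) of probes were well above background. The number of arrays limits the precision.

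From these, log2 intensities minus the 75th percentile of each sample were computed, leaving out control and outlier spots. Probes were named through their accession (10735 of 41012), current symbol (5571) or older symbol (3729) in the RefSeq table for GRCr8. Probes well above background in all samples of at least 1 segment, with at least 2 values in each segment, were kept (38821), and the brightest stood for a gene (33638 genes). limma 3.58.1 in R 4.3.3 fitted segment and dye, with the slide as random block (correlation 0.361) and an intensity trend. Tests were two-sided with Benjamini-Hochberg adjustment over all genes tested, called at an adjusted p under 0.05. The procedure was tested on simulated data.

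Members and gene lists were chosen with earlier results of these data known. All members are named, along with the 3 largest ileal differences of each pathway list, the 2 largest of each marker list, undetected defining markers and the 5 genes most alike. Some genes that this rule names are left out and not reported here. Alternatives covered background correction, scaling, filters, model terms, blocks, probe choice and each sample left out (with the slide correlation kept).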

Additional observations from a re-analysis of the deposited data

How the results depend on the processing

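Over 31 alternatives, RT1-Ba, RT1-Bb, RT1-Da and Cd74 stayed higher in the ileum than in the proximal small bowel and past the threshold in each, with differences of 3.37 to 5.92, 2.63 to 3.80, 2.72 to 4.04 and 2.79 to 4.38. RT1-Db1 did so in all but one, chosen after seeing the data, in which the dimmest probe stood for each gene (0.79). That same choice turned RT1-Db1 in ileum minus colon to -0.07, against 3.43. The number of genes called in ileum minus proximal small bowel was 5 or 6 with 1 sample left out and 4 to 6 otherwise.

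The 2 genes called in the stomach became 1, with RT1-DMa lost, under quantile normalization, the median of bright probes, no filter on dim probes, scan day as a block, no intensity trend, only the segments compared, and without duodenum 1 and jejunum 3 (added after seeing the data). Leaving out 1 sample gave 1 or 2 there, 3 to 5 in the colon (5 without jejunum 2), 0 to 3 in duodenum minus jejunum (3 without jejunum 2), 7 in ileum minus colon and 7 or 8 in the F test. Same-numbered samples deviated from their segment means with correlations of -0.421 to 0.293 (30 pairs, median -0.013). Different-numbered samples had -0.38 to 0.553 (60 pairs, median -0.018). Among the latter, the 3 pairs on a shared array had 0.491 to 0.553, and stomach 2 with duodenum 3, on different arrays, had 0.504. Since deviations also follow the array, these correlations cannot decide whether same-numbered samples came from one animal. With the replicate number as a block, 1 gene was called in the stomach and 5 in the ileum against the proximal small bowel, and RT1-Bb passed as lower in the colon (-1.0). Normexp lowered the ileal difference of RT1-Ba to 3.37 and raised that of Cd74 to 4.38 and of RT1-Da to 4.04, and it ended the Ciita call in the colon and the Ctss call in ileum minus colon. The cause was not tested. RT1-Ba, RT1-DMa, Cd74 and Ciita rest on 1 tested probe each, and the spots of RT1-Ba and Ciita were dim in part.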
